A study of Mus musculus with 12 samples.

Results

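Collagen chain genes encode the alpha chains of the collagens, and every gene whose symbol is Col, a number, the letter a and a number was taken as a member. Of 17097 genes measured by at least 1 probe set with a single gene symbol, 42 were collagen chain genes, with 68 probe sets among them. Where a gene had several probe sets, as 21 members did, its brightest probe set, by the mean of the 12 arrays, stood for it. The members were sorted by collagen class into 11 fibrillar chains, 9 fibril-associated chains, 6 basement membrane chains, 5 beaded filament chains, 4 transmembrane chains, 3 short chain collagens, 2 multiplexin chains, 1 anchoring fibril chain and Col26a1, which stood in no class.

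Expression was measured on 12 microarrays of RNA from primary mouse embryonic fibroblasts (MEFs), cultured connective tissue cells of e14.5 embryos from a C57Bl/6 x 129Sv (F1) background, at passage 4. The groups were CBP/p300 double knockout (dKO) cells with 2,2'-dipyridyl (DP), dKO cells with ethanol, wild-type cells with DP and wild-type cells with ethanol, with 3 arrays each. CBP and p300 are paralogous lysine acetyltransferases that act as coactivators, and the dKO cells carried conditional alleles of both genes. Both genotypes, the wild type included, had been infected with Cre adenovirus (multiplicity of infection 100) during 16 h at 3% oxygen, had been kept for 48 h at 3% oxygen and for 24 h in normoxia, and were then given 100 µM DP or ethanol, the vehicle, for 3 h. DP is an iron chelator that is used to mimic low oxygen. The dKO arrays came from lines 1, 5 and 6 and the wild-type arrays from lines 3, 4 and 5, each line with 1 array per treatment, so that the genotype differences in ethanol and under DP rest on the same 6 lines. The sources used here do not say whether each line came from an embryo of its own. The p-values measure the spread between single arrays of these lines, in which differences of lines and of arrays are not separated.

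Collagen alpha chains wind around each other in the endoplasmic reticulum into a triple helix, whose stability depends on the hydroxylation of prolines by iron-dependent prolyl hydroxylases. Fibrillar collagens are secreted as procollagens, trimmed at their ends, laid down as fibrils and cross-linked by lysyl oxidases, while other classes decorate these fibrils, form the network of basement membranes or anchor cells to them. Fibroblasts are the main source of collagens I, III, V and VI in connective tissue.

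The promoters of 33 of the 42 members were found in a table of RefSeq promoters of the GRCm38.p6 assembly, as 36 windows from 250 bases before to 50 bases after a transcription start. Those of 4 genes are shown because their transcripts stood at the ends of the genotype difference described below: Col5a3, Col7a1 and Col6a3 had the 3 largest falls in ethanol among members with 1 window, and Col4a5 had the largest rise. Each is the stretch of the window that lies before the annotated gene, 5′ to 3′ on the gene's strand, and capitals mark matches to the 4 motifs named below.
Col5a3, chr9:20815118-20815317, minus strand: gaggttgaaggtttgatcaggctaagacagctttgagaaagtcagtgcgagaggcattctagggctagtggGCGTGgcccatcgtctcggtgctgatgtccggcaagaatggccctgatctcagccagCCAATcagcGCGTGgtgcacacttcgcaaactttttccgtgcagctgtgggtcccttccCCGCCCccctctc
Col7a1, chr9:108953336-108953585, plus strand: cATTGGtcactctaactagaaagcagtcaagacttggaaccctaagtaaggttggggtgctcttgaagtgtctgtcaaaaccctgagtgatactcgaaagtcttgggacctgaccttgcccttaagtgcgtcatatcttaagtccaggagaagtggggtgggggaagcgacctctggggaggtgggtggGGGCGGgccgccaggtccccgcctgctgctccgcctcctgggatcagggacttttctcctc
Col6a3, chr1:90844002-90844221, minus strand: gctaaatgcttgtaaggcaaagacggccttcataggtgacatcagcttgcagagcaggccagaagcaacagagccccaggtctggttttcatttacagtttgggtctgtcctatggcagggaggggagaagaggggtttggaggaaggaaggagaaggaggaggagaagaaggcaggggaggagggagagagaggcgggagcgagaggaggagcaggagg
Col4a5, chrX:141475169-141475369, plus strand: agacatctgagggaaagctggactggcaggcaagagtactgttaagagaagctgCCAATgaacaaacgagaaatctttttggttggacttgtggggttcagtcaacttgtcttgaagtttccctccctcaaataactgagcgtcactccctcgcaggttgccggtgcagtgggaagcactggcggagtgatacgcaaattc

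The motifs were CCAAT (the CCAAT box), GGGCGG (the GC box bound by Sp factors), TATAAA (the TATA box), and ACGTG or GCGTG (the core bound by hypoxia-inducible factors), each searched on both strands. No motif contains another, although ACGTG on one strand can overlap itself on the other. Members that were lower in dKO cells in both treatments had 23 windows from 20 genes, and the other members had 13 windows from 13 genes. Over whole windows, CCAAT was found in 43.5% of the first set, 23.1% of the second and 37.4% of all 32851 windows of the table. GGGCGG was found in 60.9%, 61.5% and 35.7% of the same sets. TATAAA was found in 8.7%, 23.1% and 13.6%, and ACGTG or GCGTG in 39.1%, 23.1% and 43.8%. The GC box was as frequent in members that were lower as in the others, and the printed stretch of Col6a3 held none of the 4 motifs. A match describes these letters in these windows and is not evidence of binding.

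Array medians lay between 3.87 and 3.98 log2 on the 12 arrays. Of 40 blank controls, the 95th percentile lay between 3.35 and 3.38 in dKO DP and 3.44 and 3.52 in dKO ethanol arrays. In wild-type arrays it lay between 3.56 and 3.81 under DP and 3.55 and 3.89 in ethanol, without overlap between the genotypes. A group mean at or under 3.89, the highest value of a single array, is called near blank below. Of the 42 members, 16 were near blank in all 4 groups and 26 were above it in some group. Crebbp, the gene of CBP, had a log2 difference of -0.85 ± 0.16 between dKO and wild-type cells in ethanol (SE, n = 3 arrays per group, limma adjusted p = 0.000992). The sources used here do not say whether its probe set overlaps the deleted exons, so that it does not check the deletion. Xist, the RNA of the inactive X chromosome, lay between 3.94 and 5.32 log2 on dKO arrays and between 10.3 and 10.7 on wild-type arrays, while Eif2s3y, a Y-linked gene, lay between 7.08 and 8.93 on dKO arrays and between 2.49 and 3.29 on wild-type arrays. The sex of the lines and the genotype therefore cannot be told apart. The 3′ minus 5′ log2 difference of the beta-actin control probe sets, a measure of RNA quality, lay between 0.48 and 0.60 in dKO DP, 0.40 and 0.45 in dKO ethanol, 0.28 and 0.38 in wild-type DP and 0.23 and 0.25 in wild-type ethanol arrays. It did not overlap between the genotypes, nor between DP and ethanol within either genotype. The same difference for GAPDH lay between 0.10 and 0.19 in dKO DP, 0.19 and 0.21 in dKO ethanol, 0.04 and 0.17 in wild-type DP and -0.03 and 0.15 in wild-type ethanol arrays, and overlapped between the genotypes under DP. The ethanol arrays of dKO line 1 and wild-type line 5 deviated together from their groups (r = 0.844 across 8917 genes, which are not independent replicates).

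The genotype comparison in ethanol asked which collagen chain transcripts differ when CBP and p300 are deleted. Most collagen chain genes were lower in dKO cells: 24 of 42 fell, 1 rose and 17 did not pass the test, which was an adjusted p under 0.05 in limma over all 17097 genes. Of all genes tested, 33.6% passed in either direction, 14.1% as lower and 19.5% as higher, against 57.1% of the collagen chain genes as lower and 2.38% as higher. The median log2 difference over the 42 members was -0.45, against -0.01 over all genes. In 26 members every dKO array lay below every wild-type array, and in 2 every dKO array lay above. Of all genes, 18.8% lay below and 21.2% above in this way. RNA from whole cultures does not distinguish fewer expressing cells from less RNA per cell.

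Under DP the genotype difference was of the same order, with 23 members lower, 2 higher and 17 that did not pass. Of all genes, 35.4% passed under DP, 16.9% as lower and 18.5% as higher, against 54.8% and 4.76% of the members. The median was -0.52 for the members and -0.01 for all genes. All 23 members lower under DP were also lower in ethanol, and the member lower in ethanol alone by this test was Col9a3, a fibril-associated chain near blank in all groups but wild-type ethanol. Of the 16 members near blank in all groups, 3 were lower in both treatments (Col9a1, Col22a1 and Col24a1). Of 5910 genes of the whole table that were near blank in all groups, 3.6% were lower and 0.964% higher in ethanol, and 4.89% were lower and 1.24% higher under DP. The blank controls themselves averaged 2.94 log2 in dKO ethanol and 2.99 in wild-type ethanol arrays, and 2.89 in dKO DP and 3.01 in wild-type DP arrays.

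**Figure D1:**
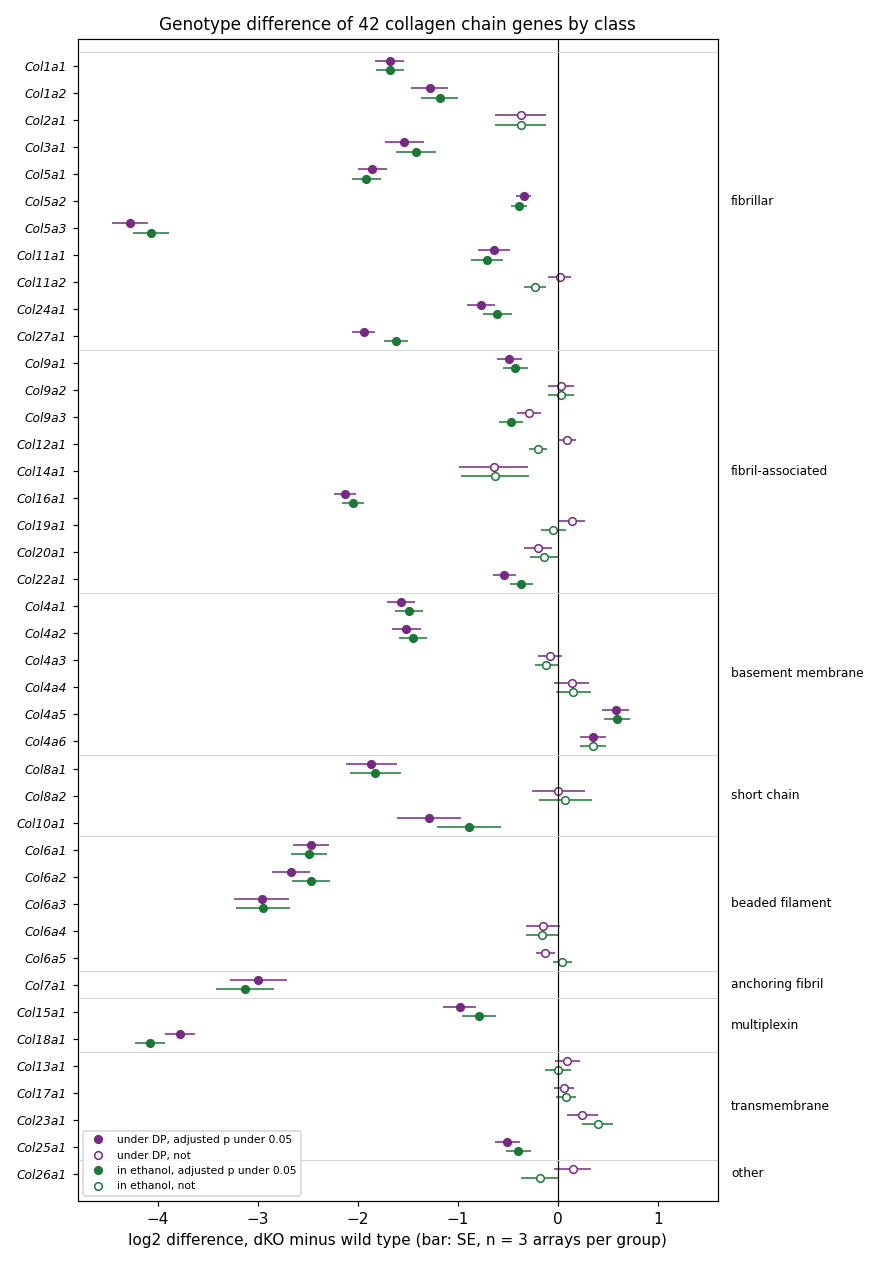
Log2 difference between dKO and wild-type cells (dKO minus wild type, horizontal axis) for each of 42 collagen chain genes, grouped by class, under DP (purple) and in ethanol (green). Bars are SE with n = 3 arrays per group and filled points had an adjusted p under 0.05. In ethanol 24 members lie to the left as filled points, down to Col18a1 and Col5a3 at -4.07, and Col4a5 lies to the right at 0.59.

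Fibrillar chains, which make the banded fibrils of connective tissue, fell in 9 of 11 cases in ethanol and in the same 9 under DP, with median log2 differences of -1.18 and -1.28. Col5a3, a minor chain of collagen V, had 4.91, 4.74 and 4.12 log2 on the ethanol arrays of dKO lines 1, 5 and 6, against 8.65, 8.43 and 8.90 on those of wild-type lines 3, 4 and 5. Under DP it had 4.37, 4.37 and 4.38 in dKO cells, against 8.81, 8.52 and 8.60 in wild-type cells. All dKO values were just above the blank level and far from the wild-type values. The differences were -4.07 ± 0.18 in ethanol (adjusted p = 1.42e-08), a 16.8-fold lower signal in dKO cells, and -4.28 ± 0.18 under DP (adjusted p = 8.44e-09). The second probe set of Col5a3 averaged 3.56 log2 over the arrays and differed by -0.19 ± 0.16 in ethanol, so that the mean of both sets gave -2.13 for the gene.

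Col1a1, which encodes the major chain of collagen I, had 10.54, 10.47 and 9.89 log2 in dKO ethanol, against 11.90, 11.93 and 12.11 in wild-type ethanol arrays. Under DP the values were 10.34, 10.39 and 10.32 in dKO, against 12.07, 12.02 and 12.00 in wild-type cells. The genotypes did not overlap, and the 3 DP arrays of each genotype lay close together. The difference was -1.68 ± 0.14 in both treatments (adjusted p = 2.07e-06 in ethanol and 1.86e-06 under DP), or 3.2-fold lower in ethanol. Col1a2, the other chain of collagen I, was represented by 1 probe set, with 3.32, 3.81 and 3.25 log2 in dKO ethanol, against 4.76, 4.85 and 4.31 in wild-type ethanol arrays. Its dKO group means were near blank in both treatments, so that its fall of -1.18 ± 0.19 in ethanol (adjusted p = 0.000288) and -1.28 ± 0.19 under DP may be understated. Its signal says nothing of the gene's level relative to Col1a1.

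Col3a1, the chain of collagen III, had 11.67, 11.79 and 11.08 log2 in dKO ethanol, against 12.97, 12.91 and 12.92 in wild-type ethanol arrays. In dKO cells line 6 was the lowest, and wild-type arrays lay within a narrow range. The fall was -1.42 ± 0.20 in ethanol (adjusted p = 0.000107) and -1.53 ± 0.20 under DP (adjusted p = 5.55e-05). Col5a1, the main chain of collagen V, which starts fibril assembly, had 10.70, 10.57 and 10.12 log2 in dKO ethanol, against 12.39, 12.40 and 12.34 in wild-type ethanol arrays. Its groups did not overlap, and it fell by 1.92 ± 0.15 on the log2 scale in ethanol (adjusted p = 7.92e-07) and by 1.85 ± 0.15 under DP. Col5a2, the partner chain of Col5a1, differed less in its brightest probe set, with 12.29, 12.38 and 12.27 log2 in dKO ethanol, against 12.69, 12.69 and 12.71 in wild-type ethanol arrays. It fell by 0.39 ± 0.08 in ethanol (adjusted p = 0.00199) and by 0.34 ± 0.08 under DP, and it did not pass with a fold minimum of 1.5. Its other probe set, with a mean of 9.67 log2, fell by 1.15 ± 0.19 in ethanol and by 1.32 ± 0.19 under DP.

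Col27a1, a fibrillar chain known from cartilage, had 4.81, 5.01 and 4.56 log2 in dKO ethanol, against 6.41, 6.28 and 6.54 in wild-type ethanol arrays, a difference of -1.62 ± 0.12 (adjusted p = 5.6e-07). Col11a1, a chain of collagen XI that regulates fibril diameter, had 8.04, 8.80 and 8.45 log2 in dKO ethanol, against 9.10, 9.29 and 9.03 in wild-type ethanol arrays. Its highest dKO array lay just below its lowest wild-type array, and it fell by 0.71 ± 0.16 in ethanol (adjusted p = 0.00364) and by 0.64 ± 0.16 under DP. Col24a1 fell by 0.61 ± 0.14 in ethanol and by 0.77 ± 0.14 under DP with all group means near blank. Col2a1, the main collagen of cartilage, overlapped between genotypes and differed by -0.37 ± 0.25 in both treatments (adjusted p = 0.308 in ethanol). Col11a2, near blank, differed by -0.23 ± 0.11 in ethanol and 0.02 ± 0.11 under DP.

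**Figure D2:**
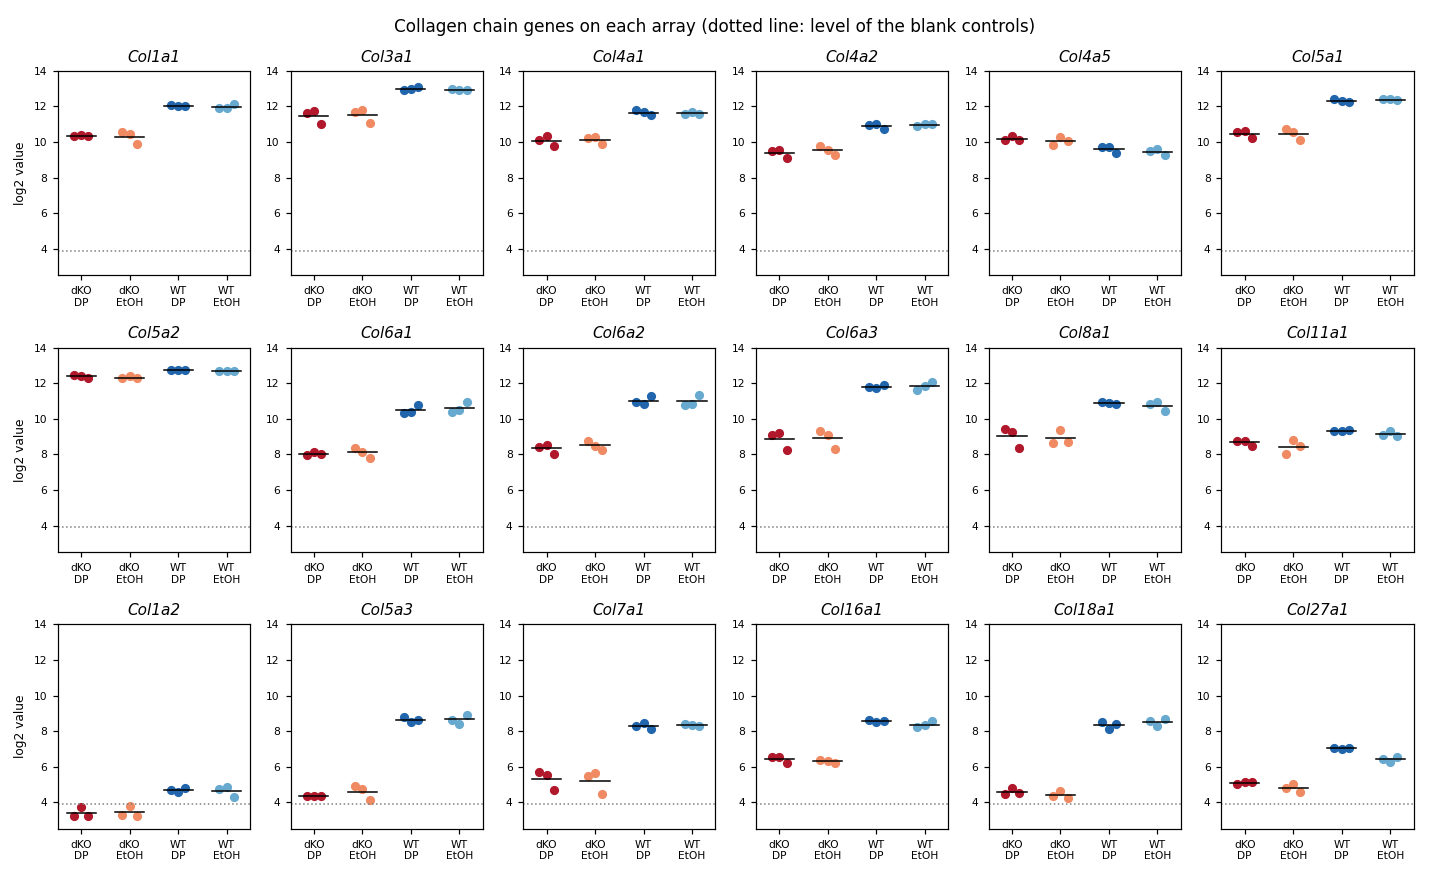
Log2 value (vertical axis) of 18 collagen chain genes on each of the 12 arrays, by group, with the group mean as a black line and the blank level of 3.89 as a dotted line. The 12 genes with a mean over 8 log2 come first, followed by the 6 others of largest genotype difference in ethanol. Red and orange dKO arrays lie below blue wild-type arrays in every panel but that of Col4a5, where they lie above.

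Beaded filament chains form the microfibrils of collagen VI around cells, and the 3 chains of its classical heterotrimer fell together. Col6a1 had 8.38, 8.15 and 7.81 log2 in dKO ethanol, against 10.35, 10.49 and 10.94 in wild-type ethanol arrays. Col6a2 had 8.76, 8.49 and 8.27 in dKO ethanol, against 10.75, 10.83 and 11.34 in wild-type ethanol arrays. Col6a3, the longest chain, had 9.30, 9.09 and 8.30 in dKO ethanol, against 11.63, 11.85 and 12.05 in wild-type ethanol arrays. In all 3 genes dKO line 6 was the lowest array and wild-type line 5 the highest, and the genotypes lay well apart. The differences in ethanol were -2.48 ± 0.18, -2.46 ± 0.19 and -2.95 ± 0.27 for Col6a1, Col6a2 and Col6a3 (adjusted p = 5.44e-07, 9.13e-07 and 3.54e-06), and under DP they were -2.47 ± 0.18, -2.67 ± 0.19 and -2.96 ± 0.27. Col6a4 and Col6a5, which can replace Col6a3 in other tissues, were near blank in all groups and did not pass in either treatment, at -0.16 ± 0.17 and 0.04 ± 0.09 in ethanol.

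Basement membrane chains split by gene pair. Col4a1, a chain of the collagen IV found in nearly all basement membranes, had 10.23, 10.26 and 9.89 log2 in dKO ethanol, against 11.58, 11.67 and 11.59 in wild-type ethanol arrays. Its partner Col4a2 had 9.75, 9.56 and 9.27 in dKO ethanol, against 10.92, 11.03 and 10.98 in wild-type ethanol arrays. Neither overlapped between genotypes. Col4a1 fell by 1.49 ± 0.14 in ethanol (adjusted p = 4.29e-06) and differed by -1.57 ± 0.14 under DP. Col4a2 fell by 1.45 ± 0.14 in ethanol (adjusted p = 6.04e-06) and by 1.52 ± 0.14 under DP.

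Col4a5, whose chain joins the collagen IV of kidney, lung and smooth muscle basement membranes, was higher in dKO cells. It had 9.83, 10.25 and 10.04 log2 in dKO ethanol, against 9.49, 9.60 and 9.27 in wild-type ethanol arrays. Under DP it had 10.11, 10.33 and 10.10 in dKO cells, against 9.70, 9.70 and 9.40 in wild-type cells. The groups did not overlap in either treatment. It rose by 0.59 ± 0.13 in ethanol (adjusted p = 0.00399) and by 0.58 ± 0.13 under DP (adjusted p = 0.00464), or 1.5-fold in ethanol. Col4a6, its partner in smooth muscle, had 4.63, 4.52 and 4.40 log2 in dKO ethanol, against 4.34, 4.06 and 4.11 in wild-type ethanol arrays. It differed by 0.35 ± 0.13 in both treatments and passed under DP alone (adjusted p = 0.0527 in ethanol and 0.0493 under DP, where it was 0.0544 with the MEF line as a block). Its second probe set, with a mean of 4.14 log2, differed by 0.13 ± 0.12 in ethanol and 0.33 ± 0.12 under DP. In a limma fit over probe sets neither set passed under DP (adjusted p = 0.055 for the brighter and 0.0564 for the second). Col4a5 and Col4a6 lie on the X chromosome, where Xist separated the same arrays, and the sex of the lines cannot be told apart from the genotype for them. Col4a3 and Col4a4, the remaining collagen IV chains, were near blank in all groups and did not pass, at -0.12 ± 0.12 and 0.15 ± 0.18 in ethanol.

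Col18a1 and Col15a1 encode the multiplexins of basement membrane zones, whose ends release the fragments endostatin and restin. Col18a1 had 4.38, 4.65 and 4.25 log2 in dKO ethanol, against 8.57, 8.27 and 8.66 in wild-type ethanol arrays. Under DP it had 4.45, 4.80 and 4.50 in dKO cells, against 8.52, 8.15 and 8.41 in wild-type cells. All dKO arrays lay little above the blank level. The differences of -4.07 ± 0.15 in ethanol (adjusted p = 3.21e-09), which is 16.8-fold lower, and -3.78 ± 0.15 under DP were with those of Col5a3 the largest among the members. Col15a1 was near blank in dKO cells and fell by 0.79 ± 0.17 in ethanol (adjusted p = 0.00244) and by 0.98 ± 0.17 under DP. These differences may be understated for that reason.

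Col7a1, the only chain of the anchoring fibrils that fasten the epidermal basement membrane to the dermis, had 5.50, 5.68 and 4.48 log2 in dKO ethanol, against 8.38, 8.37 and 8.28 in wild-type ethanol arrays. Under DP it had 5.68, 5.55 and 4.72 in dKO cells, against 8.31, 8.47 and 8.14 in wild-type cells. Line 6 was the lowest dKO line in both treatments, and the genotypes lay far apart. It fell by 3.13 ± 0.29 in ethanol (adjusted p = 3.5e-06), an 8.74-fold lower signal, and by 2.99 ± 0.29 under DP.

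Of the 9 fibril-associated chains, which sit on the surface of fibrils or link them to other molecules, 4 were lower in ethanol and 3 under DP. Col16a1, the clearest of them, had 6.40, 6.33 and 6.23 log2 in dKO ethanol, against 8.22, 8.32 and 8.55 in wild-type ethanol arrays. The arrays of each genotype lay within a narrow range, and the difference was -2.05 ± 0.11 in ethanol (adjusted p = 7.23e-08) and -2.13 ± 0.11 under DP (adjusted p = 5.67e-08). The other calls, Col9a1, Col22a1 and (in ethanol) Col9a3, were between -0.37 and -0.54 with all or nearly all groups near blank. Col14a1, which binds fibrils through decorin, had 4.48, 5.69 and 4.76 log2 in dKO ethanol, against 5.44, 6.04 and 5.33 in wild-type ethanol arrays, and dKO line 5 overlapped the wild type. Its difference of -0.63 ± 0.34 did not pass (adjusted p = 0.19). Col9a2, Col12a1, Col19a1 and Col20a1 were near blank in all groups and did not pass in either treatment. For Col12a1 this rests on 1 probe set with a mean of 2.74 log2, whose signal says nothing of the gene's level.

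Short chain collagens form networks under endothelia and in growth plates. Col8a1 had 8.66, 9.37 and 8.71 log2 in dKO ethanol, against 10.84, 10.94 and 10.45 in wild-type ethanol arrays. The genotypes did not overlap, and it fell by 1.83 ± 0.26 in ethanol (adjusted p = 0.000108) and by 1.87 ± 0.26 under DP. Col8a2, its partner, differed by 0.07 ± 0.26 in ethanol and did not pass. Col10a1, the collagen of hypertrophic cartilage, had 4.07, 4.30 and 3.92 log2 in dKO ethanol, against 5.22, 4.42 and 5.32 in wild-type ethanol arrays, where line 4 was close to the dKO arrays. Its fall of -0.89 ± 0.32 in ethanol (adjusted p = 0.0495) passed narrowly, and under DP it fell by 1.29 ± 0.32 (adjusted p = 0.00696). Among the 4 transmembrane chains Col25a1 fell by 0.40 ± 0.12 in ethanol (adjusted p = 0.0242) and by 0.50 ± 0.12 under DP with dKO means near blank. Its second probe set, with a mean of 3.13 log2, differed by -0.06 ± 0.16 in ethanol and -0.14 ± 0.16 under DP. The mean of both sets did not pass in ethanol (-0.23, adjusted p = 0.12) and passed under DP (-0.32, adjusted p = 0.0283). Col13a1, Col17a1 and Col23a1, like Col26a1, were near blank in all groups and did not pass.

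Leaving out single arrays removed a few of the weaker calls in ethanol. Col25a1 was lost without the ethanol array of dKO line 1 (-0.34), dKO line 6 (-0.42), wild-type line 3 (-0.31) or wild-type line 5 (-0.39). Col9a1 was lost without that of dKO line 1 (-0.33) or wild-type line 3 (-0.40), and Col22a1 without that of dKO line 5 (-0.28), wild-type line 4 (-0.38) or wild-type line 5 (-0.28). Col10a1 was lost without any array but those of wild-type line 4 and the DP array of wild-type line 3, with values between -0.72 and -0.99. Under DP, Col4a6 was lost without any of 9 arrays, with values between 0.25 and 0.38. With the beta-actin 3′ to 5′ difference as a covariate, 11 of the 25 calls in ethanol and 9 of 25 under DP remained, while 6.61% and 6.0% of all genes were called. The differences were then 0.879 and 0.874 times as large (medians over the called members), their standard errors 2.19 and 2.25 times as large, and all 25 signs were kept in each treatment. The calls that remained in both treatments were Col1a1, Col4a1, Col5a1, Col5a3, Col6a1, Col6a2, Col16a1, Col18a1 and Col27a1, and Col6a3 and Col7a1 remained in ethanol. In that fit the differences in ethanol and under DP were -0.58 and -0.65 for Col3a1, -0.98 and -1.04 for Col4a1, -0.85 and -0.89 for Col4a2, -0.99 and -1.0 for Col8a1, -1.90 and -1.87 for Col6a3, and -1.92 and -1.74 for Col7a1, each over 1.5 times smaller than without the covariate. That for Col10a1 was larger, at -1.58 and -2.01, and that for Col25a1 was -0.04 and -0.13.

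Several members lie next to each other in the mouse genome, with distances from the GRCm38.p6 gene table. Col4a1 and Col4a2 overlap by their ends on chromosome 8, at 11198423-11312889 and 11312805-11449287, and fell by similar amounts. Col4a6 and Col4a5 are 1274 bases apart on chromosome X, at 141165403-141474095 and 141475370-141689236, and both lay higher in dKO cells. Col3a1 and Col5a2 are 24624 bases apart on chromosome 1, at 45311538-45349706 and 45374331-45503282, and fell by 1.42 and 0.39 in ethanol in their brightest probe sets, while their other probe sets fell by 3.33 and 1.15. On chromosome 10, Col6a2 and Col6a1 are 85161 bases apart and Col18a1 lies a further 326133 bases away. The log2 differences of these 3 genes in ethanol were -2.46, -2.48 and -4.07. Whether neighbours move together more than other members was not tested.

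The lines of each genotype differed among themselves. Of the 23 members lower in both treatments, dKO line 6 was the lowest of the 3 dKO lines in 16 under DP and in 16 in ethanol, with a median deviation from the group mean of -0.18 and -0.21 log2. Line 5 was the highest in 18 under DP and in 12 in ethanol. Its median deviation was 0.14 under DP and 0.15 in ethanol. Among the wild-type lines, over the same members, line 4 was the lowest in 12 under DP and line 3 in 11 in ethanol. Wild-type line 3 was the highest in 10 under DP and wild-type line 5 in 13 in ethanol, where its median deviation was 0.13. The members counted are not independent of each other. The beta-actin difference was also highest in line 6 among the dKO lines, at 0.60 under DP and 0.45 in ethanol, and its part in the lower values was not tested.

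Several probe sets of the same gene gave the same direction but different sizes. Of 11 members with at least 2 probe sets above blank, all 11 had the same sign in every probe set in both treatments. Col3a1 differed by -1.42 ± 0.20 in ethanol in the probe set with a mean of 12.2 log2 and by -3.33 ± 0.31 in that with a mean of 8.92. Col5a2 differed by -0.39 ± 0.08 and by -1.15 in probe sets with means of 12.5 and 9.67. Col5a1 differed by -1.92 and by -2.93 in probe sets with means of 11.4 and 7.11. Col18a1 had the opposite order, at -4.07 in the set with a mean of 6.47 and -3.47 in that with a mean of 6.01. In 9 of the 11 genes in ethanol, and in 7 under DP, the probe set with the highest mean had the smallest difference. The fall of a member thus depends on which probe set stands for it: with the mean of all probe sets, Col3a1 was at -2.38 and Col5a2 at -0.77 in ethanol.

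**Figure D3:**
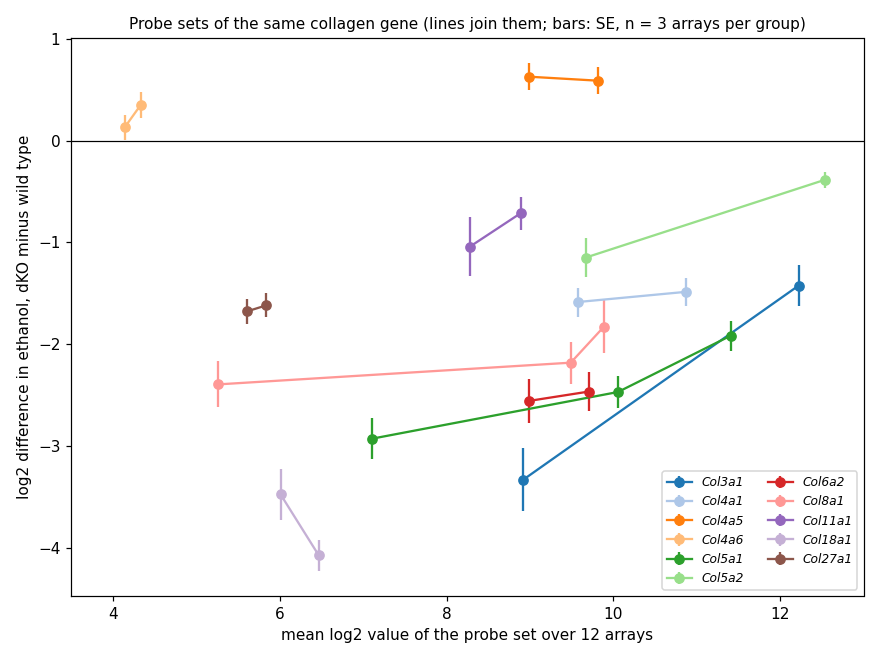
Log2 difference between dKO and wild-type cells in ethanol (dKO minus wild type, vertical axis, bars are SE with n = 3 arrays per group) against the mean log2 value of the probe set over the 12 arrays, for 11 collagen chain genes with at least 2 probe sets above blank. Lines join probe sets of 1 gene. Every gene keeps 1 sign, and Col3a1 ranges from -1.42 to -3.33.

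The DP comparisons asked whether collagen chain transcripts respond to 3 h of iron chelation. In dKO cells none of the 42 members passed the test (limma, lowest adjusted p = 0.276), and 2 had an unadjusted p under 0.05, while 1.5% of all genes passed (1.01% as higher and 0.491% as lower). In wild-type cells Col27a1 alone passed, while 4.73% of all genes did (3.05% as higher and 1.67% as lower), and it was also the only member with an unadjusted p under 0.05. The median log2 differences between DP and ethanol were -0.03 in dKO and -0.01 in wild-type cells. Standard errors of the members lay between 0.08 and 0.34 with a median of 0.14 log2, which limits the size of change that could be detected.

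Col27a1 had 7.06, 7.0 and 7.07 log2 in wild-type lines 3, 4 and 5 under DP, against 6.41, 6.28 and 6.54 in ethanol. The DP arrays lay above the ethanol arrays in all 3 lines, without overlap. The rise was 0.63 ± 0.12 (adjusted p = 0.0059), and it did not pass with the beta-actin covariate (0.63, adjusted p = 0.131), where 2.05% of all genes were called. The second probe set of Col27a1, with a mean of 5.60 log2 against 5.84 for the brighter one, gave 0.38 ± 0.12 and did not pass (adjusted p = 0.136 in a limma fit over probe sets, where the brighter set had 0.00754). In dKO lines 1, 5 and 6 the gene had 5.01, 5.17 and 5.13 log2 under DP, against 4.81, 5.01 and 4.56 in ethanol. Its difference of 0.31 ± 0.12 in dKO cells did not pass (adjusted p = 0.276), although with array weights it was 0.47 (adjusted p = 0.0112). With array weights Col22a1 passed too, at -0.30 (adjusted p = 0.0444), with all group means near blank, and 8.64% of all genes were called there.

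The DP effects of the genotypes were then compared directly, as the difference dKO minus wild type. No member passed in limma, against 0.562% of all genes (0.0468% with a higher and 0.515% with a lower effect in dKO cells), and Col12a1, near blank, alone had an unadjusted p under 0.05 (0.29 ± 0.13, adjusted p = 0.801). The difference for Col27a1 was -0.32 ± 0.16, and the largest was -0.40 for Col10a1, with an SE of 0.45. The standard errors of this difference lay between 0.11 and 0.48 log2. The major chains moved little with DP in either genotype: Col1a1 differed by 0.05 ± 0.14 in dKO and 0.05 ± 0.14 in wild-type cells, and Col3a1 by -0.06 ± 0.20 and 0.05 ± 0.20.

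**Figure D4:**
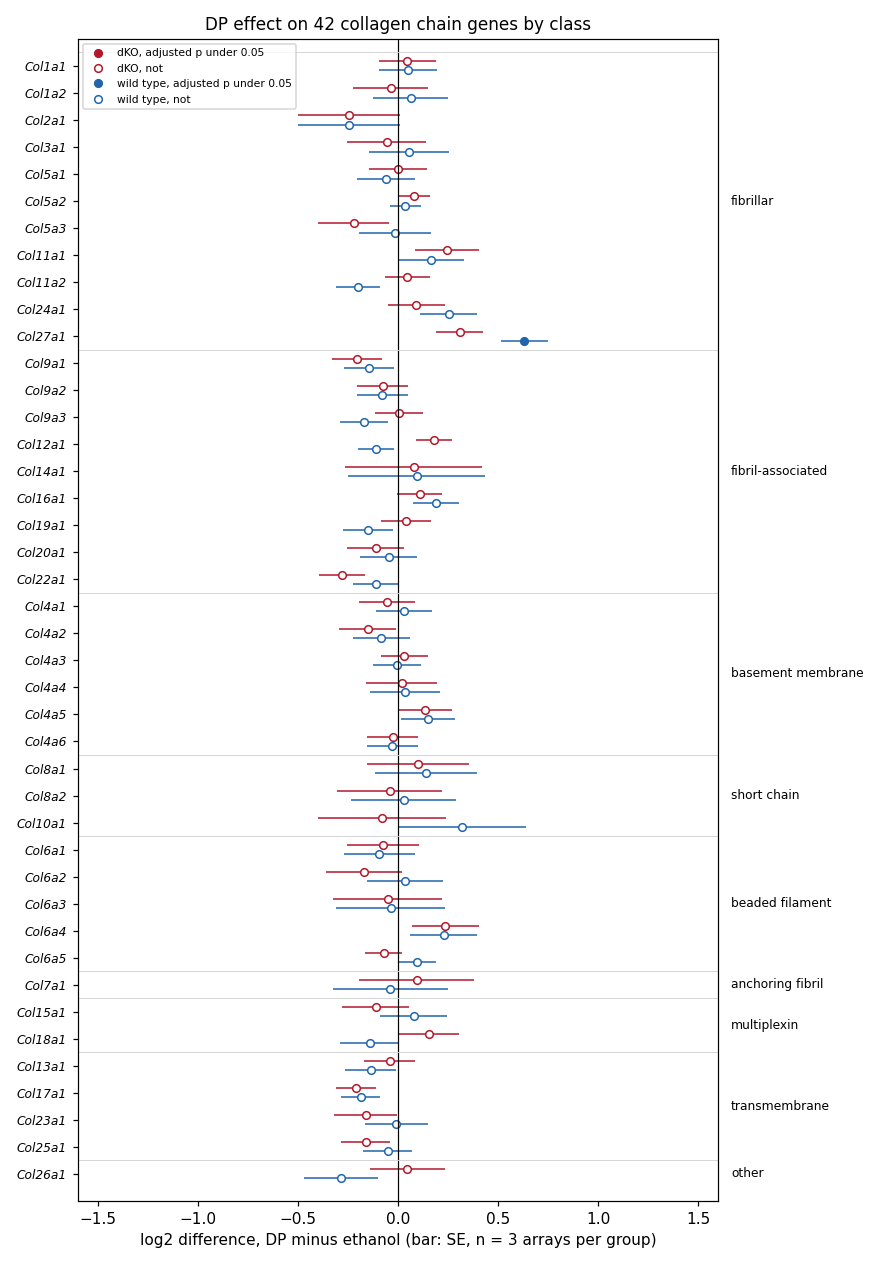
Log2 difference between DP and ethanol (DP minus ethanol, horizontal axis) for the 42 collagen chain genes by class, in dKO cells (red) and wild-type cells (blue), with bars for SE (n = 3 arrays per group). Filled points are members with an adjusted p under 0.05. Col27a1 in wild-type cells at 0.63 is the only filled point.

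Genes that modify, fold, export, process and cross-link collagen were counted from lists chosen with earlier results of these data known. These shares of all genes stand beside every list count below: 14.1% lower and 19.5% higher in ethanol, and 16.9% and 18.5% under DP. For DP against ethanol, 4.73% of all genes passed in wild-type and 1.5% in dKO cells. Of 9 measured genes of prolyl hydroxylation, 4 were lower and none higher in dKO cells in ethanol, and 6 were lower under DP. P4ha3 and P4ha2, which encode catalytic subunits of collagen prolyl 4-hydroxylase, differed by -2.04 ± 0.11 and -1.30 ± 0.11 in ethanol. P3h2, a prolyl 3-hydroxylase gene, differed by -0.50 ± 0.15, and Crtap, which encodes a partner of prolyl 3-hydroxylase 1, by -0.30 ± 0.10. P4ha2 rose with DP in dKO cells by 0.88 ± 0.11 and in wild-type cells by 0.48 ± 0.11, and the difference between these effects was 0.40 ± 0.16 and did not pass. Of 5 genes of lysyl hydroxylation and glycosylation, 3 were lower in both treatments, with log2 differences of -1.01 ± 0.11 for Colgalt1, -0.89 ± 0.15 for Plod1 and -0.52 ± 0.10 for Plod3 in ethanol. Plod2, whose lysyl hydroxylase acts on the ends of collagen chains, did not differ by genotype beyond the test (-0.05 ± 0.17) and rose with DP by 1.22 ± 0.17 in dKO and by 1.36 ± 0.17 in wild-type cells. Plod1 rose with DP in wild-type cells by 0.92 ± 0.15.

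Of 14 genes of folding and export, 8 were lower and 1 higher in ethanol, and 9 and 1 under DP. Fkbp7, a prolyl isomerase gene of the endoplasmic reticulum, differed by -0.76 ± 0.11 in ethanol, and Sec31a and Sec23a, of the coat of transport vesicles, by -0.69 ± 0.12 and -0.64 ± 0.14. Serpinh1, which encodes the collagen chaperone HSP47, fell by 0.43 ± 0.08 in ethanol and by 0.48 ± 0.08 under DP. Tmem38b, an intracellular cation channel gene, rose by 0.90 ± 0.10 in ethanol. Of 6 genes of procollagen processing, 4 were lower in both treatments. Pcolce2 and Pcolce, which encode enhancers of procollagen C-proteinase, fell, with log2 differences of -3.69 ± 0.21 and -1.51 ± 0.15 in ethanol, as did the proteinase genes Tll1 and Bmp1 (-1.87 ± 0.28 and -1.27 ± 0.11). Of 5 lysyl oxidase genes of cross-linking, 4 were lower in both treatments, with log2 differences of -1.75 ± 0.15 for Loxl3, -1.45 ± 0.13 for Loxl2, -1.36 ± 0.21 for Lox and -1.28 ± 0.11 for Loxl1 in ethanol. None of these 3 lists had a member that passed for DP in either genotype.

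Of 8 measured partners of fibrils, 7 were lower in both treatments. The small proteoglycan genes Dcn and Lum, whose products bind collagen fibrils, differed by -3.73 ± 0.29 and -3.53 ± 0.33 in ethanol, Postn, which encodes periostin, by -2.28 ± 0.33 and Fbn2, which encodes a fibrillin, by -2.24 ± 0.25. Fn1, encoding fibronectin, on which collagen fibrils assemble, fell by 0.77 ± 0.09. Of 7 collagen receptor genes, 4 were lower in ethanol and 3 under DP, with Itga1, an integrin subunit gene, at -1.33 ± 0.20 and Mrc2, the gene of an endocytic collagen receptor, at -0.70 ± 0.12 in ethanol. Of 10 genes of collagen turnover, 8 were lower and 1 higher in both treatments. The collagenase gene Mmp13 differed by -5.07 ± 0.19, the gelatinase gene Mmp2 by -1.75 ± 0.14, the inhibitor gene Timp3 by -2.75 ± 0.12 and Fap, a fibroblast protease gene, by -1.90 ± 0.21 in ethanol, so that proteinases and an inhibitor of them were among the lower genes. No partner, receptor or turnover gene passed for DP.

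Of 28 regulators of collagen genes, 13 were lower and 4 higher in ethanol, and 13 and 5 under DP. Of all genes, 14.1% were lower and 19.5% higher in ethanol, and 16.9% and 18.5% under DP. The 4 higher regulators in ethanol were named after their values were seen. Larp6 and Fli1 rose by 1.425 ± 0.22 and 0.78 ± 0.23, and Rfx5 and Ccn2 by 0.61 ± 0.11 and 0.58 ± 0.10. Among the lower ones, the transcription factor genes Sox9 and Runx1 differed by -2.09 ± 0.21 and -2.02 ± 0.19 in ethanol. Creb3l1, a membrane-bound factor that activates collagen I genes in bone, differed by -1.83 ± 0.12, and Tgfb2, a transforming growth factor gene, by -1.62 ± 0.22. In wild-type cells 3 of the 28 regulators rose with DP, against 3.05% of all genes. They were Smad7, an inhibitor of that pathway, at 1.13 ± 0.13, Sox9 at 1.01 ± 0.21 and Ets1 at 0.92 ± 0.13. None passed for DP in dKO cells, and no gene of the 9 lists passed for the difference between the DP effects, against 0.562% of all genes.

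**Figure D5:**
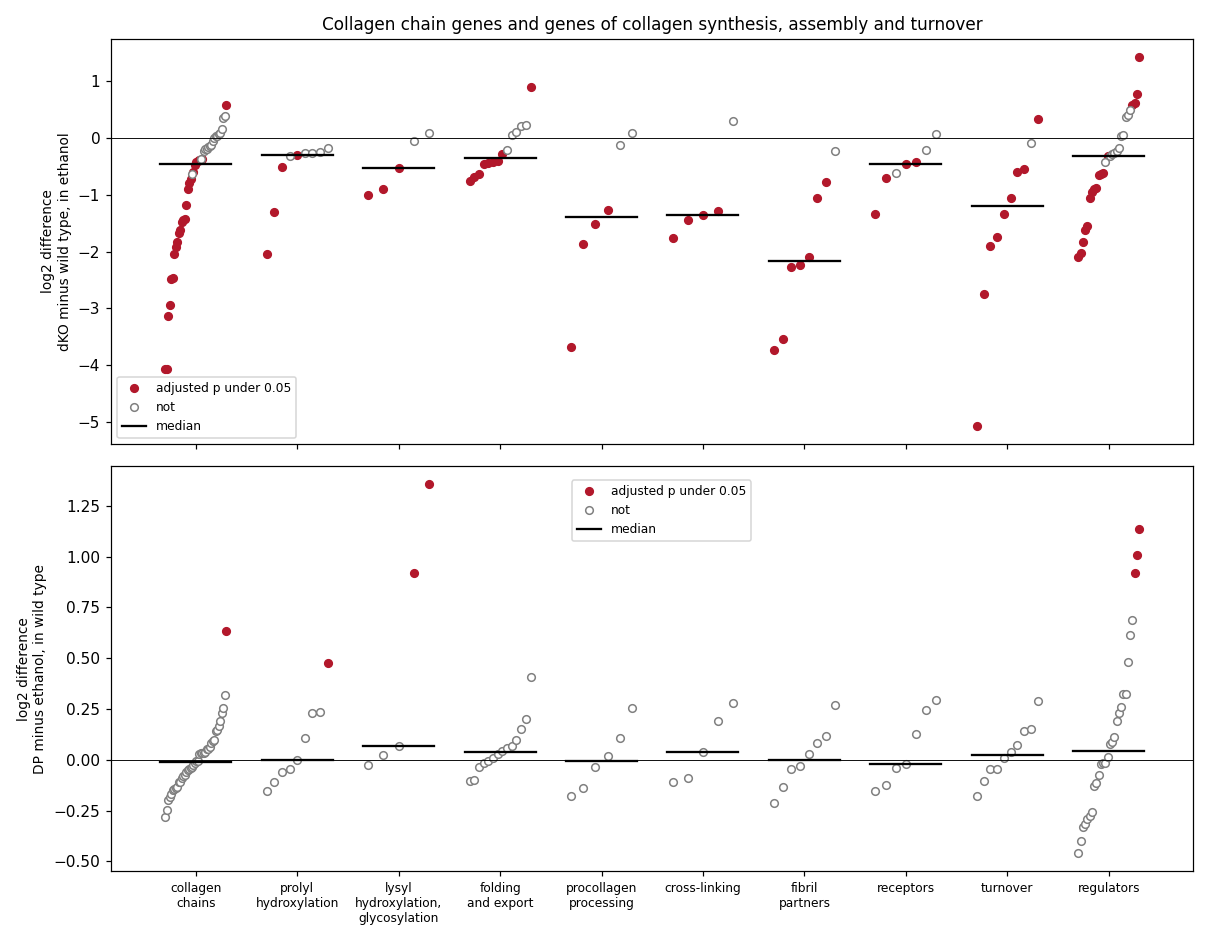
Log2 difference of collagen chain genes and of 9 lists of genes of collagen synthesis, assembly, turnover and regulation, with dKO minus wild type in ethanol above and DP minus ethanol in wild-type cells below. Each point is a gene, filled points had an adjusted p under 0.05 and black lines are medians. In the upper panel the median of the collagen chains is -0.45, and those of turnover (-1.19), cross-linking (-1.36), procollagen processing (-1.39) and fibril partners (-2.17) are under -1, while in the lower panel all medians lie between -0.02 and 0.07.

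The labelled cell type was checked against its markers, since the collagen classes are made by different cells. Beside every marker count below stand the shares of all genes: 14.1% lower and 19.5% higher in ethanol, and 16.9% and 18.5% under DP. Of 11 fibroblast markers, none was near blank in all groups, 10 were lower in dKO cells in ethanol and under DP and none was higher. Their summed linear level lay between 11727 and 14734 in dKO DP, 11884 and 14271 in dKO ethanol, 33720 and 35586 in wild-type DP and 31585 and 33253 in wild-type ethanol arrays. The list shares Dcn, Fn1, Lum and Postn with the fibril partners. All 4 measured smooth muscle markers were lower in both treatments (Myh11 at -2.09 ± 0.26 and Cnn1 at -2.0 ± 0.19 in ethanol), with sums of 5620 to 7091 in dKO DP, 5871 to 7568 in dKO ethanol, 10935 to 11749 in wild-type DP and 11143 to 11972 in wild-type ethanol arrays.

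Of 10 chondrocyte markers, 3 were lower in ethanol and 3 under DP, with Prg4 at -2.46 ± 0.33 in ethanol, and Comp, Matn1, Matn3, Hapln1, Cnmd and Chad were near blank in all groups. Their sums were 114 to 119 in dKO DP, 102 to 124 in dKO ethanol, 299 to 343 in wild-type DP and 223 to 266 in wild-type ethanol arrays. Of 5 osteoblast markers, 1 was lower in ethanol and 2 under DP (Bglap at -0.80 ± 0.14 in ethanol), with Ibsp, Dmp1 and Phex near blank. Their sums were 59.1 to 63.4, 55.8 to 63.7, 79.8 to 92.9 and 73.6 to 86.9 in dKO DP, dKO ethanol, wild-type DP and wild-type ethanol arrays. Of 8 skeletal muscle markers, 3 were lower in ethanol and 2 under DP (Acta1 at -2.81 ± 0.28 in ethanol), with Myod1, Myog, Myf5 and Tnnt1 near blank and sums of 440 to 616, 545 to 846, 2890 to 3905 and 3500.1 to 3609 in the same order of groups.

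Of 8 endothelial markers, Esam was higher in ethanol, 2 were lower under DP and 6 (Pecam1, Cdh5, Tek, Tie1, Emcn and Vwf) were near blank, with sums of 79.8 to 88.9, 81.9 to 97.0, 86.8 to 100.2 and 84.4 to 95.6 in that order of groups. Of 8 macrophage markers, 3 were lower and 2 higher in ethanol, and 4 and 2 under DP. Lyz2 fell by 3.41 ± 0.59 in ethanol, and Cd68 and Cd14, named after their values were seen as the 2 higher markers, rose by 1.53 ± 0.29 and 0.99 ± 0.20. The defining Adgre1, Ptprc and Itgam were near blank. The sums of the 8 markers were 236 to 250 (dKO DP), 244 to 316 (dKO ethanol), 265 to 580 (wild-type DP) and 230 to 702 (wild-type ethanol). Of 8 epithelial markers, 5 were lower and 1 higher in ethanol, and 3 and 1 under DP, with Krt18 at -2.04 ± 0.19 in ethanol and Krt14 and Cdh1 near blank. Their sums were 305 to 348, 174 to 217, 697 to 813 and 383 to 428 in the same order. Of 6 neural markers, Tubb3 was lower (-3.51 ± 0.30) and Nefl, near blank in all groups, higher (0.44 ± 0.15) in ethanol, and 1 was lower under DP, with Gfap, Nefl and S100b near blank and sums of 75.4 to 91.8, 83.2 to 107, 194 to 219 and 253 to 307. The part of the fibroblast, smooth muscle and other markers in the collagen differences was not tested.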

How the data were processed

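RNA was labelled for 3′ IVT Express arrays, 100 ng per array, per the labels. The deposited log2 values were made by the authors with RMA in Expression Console 1.1, per the submitters' processing notes, and array scans were not used here. Of 45141 probe sets, 104 were controls, 28898 had 1 gene symbol, of which 28689 were updated by gene identifier and 209 left unchanged, 551 had several and 15588 none. Members, classes and gene lists were chosen with earlier results of these data known. All column names matched samples.

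limma 3.58.1 (R 4.3.3, lmFit and eBayes, no filter on low values, Benjamini-Hochberg over 17097 genes) fitted 4 group means and 5 contrasts. It was tested on simulated data. SE are limma's, and precision is limited by the small number of arrays. Full values are given for members called or with a mean over 8 log2, and up to 4 called genes per pathway list or 2 per marker list. The higher regulators and macrophage markers were named besides, after their values were seen.

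Treatments of a line pair by the labels, and the deviations of both arrays of a line correlated across 8917 genes at 0.04 (dKO 1), 0.32 (dKO 5), 0.36 (dKO 6), 0.42 (wild type 3), 0.06 (wild type 4) and 0.33 (wild type 5). Alternatives were a block for MEF line (random for genotype), array weights, robust eBayes, an intensity trend, median centring, cyclic loess, the dimmest 40% left out, the mean of probe sets, only the arrays compared, the 2 deviating arrays left out, the beta-actin covariate, a fold minimum of 1.5 and each array left out. Tables used Python 3.11.15, pandas 2.3.3 and numpy 2.4.6.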

Additional observations from a re-analysis of the deposited data

How the results depend on the processing

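Of the 25 collagen calls in ethanol and the 25 under DP, 19 each held in every alternative that tested them but the beta-actin covariate. Among these, Col15a1 and Col24a1 were not tested with the dimmest 40% left out. No call changed sign in any alternative. The beta-actin covariate moved the count of calls to 11 in ethanol and to 9 under DP for genotype, and to 0 for DP in wild-type cells, and Nefl turned from 0.44 to -0.001 in ethanol. The shares of all genes called were then 6.61%, 6.0% and 2.05%, against 33.6%, 35.4% and 4.73% without the covariate. The beta-actin difference did not overlap between the genotypes, nor between DP and ethanol within either genotype. For genotype, the standard errors of the called members were 2.19 times as large in ethanol and 2.25 times as large under DP. Array weights gave 2 calls for DP in dKO cells, with 8.64% of all genes called there against 1.5% without weights, and the cause was not tested. With a block for the line the counts were 25 in ethanol and 24 under DP for genotype, 1 for DP in wild-type cells and 0 in dKO cells, and this replicate block changed no call but that of Col4a6. Over all 17097 genes the block gave 5720 calls in ethanol and 6052 under DP for genotype, against 5740 and 6057 without it. Leaving out 1 array at a time gave 22 to 25 calls in ethanol, 24 to 26 under DP, 1 to 1 for DP in wild-type cells and 0 in dKO cells. Over all genes these fits gave 4724 to 6180 calls in ethanol and 4999 to 6648 under DP for genotype. For DP they gave 538 to 1010 calls in wild-type cells and 153 to 326 in dKO cells. Without the 2 deviating arrays 22 members were called in ethanol and 26 under DP. Over all genes 6352 were then called in ethanol and 7661 under DP, against 5740 and 6057 with all arrays. With the dimmest 40% of genes left out, 23 members were tested and the median genotype difference was -1.49 in ethanol and -1.57 under DP. Over all genes kept it was 0.12 in ethanol and 0.09 under DP. These member medians cover another set than the -0.45 and -0.52 over all 42 members, since the dim members were dropped. Differences of members near blank may be understated, which was not tested, and a change within their errors was not detectable with 3 arrays per group. The blank controls themselves differed by -0.04 in ethanol and by -0.12 under DP between dKO and wild-type arrays. The part of that shift in the small falls of near-blank members was not tested.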
